A study of Mus musculus with 4 samples.

Results

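Liver of KO-labelled mice was compared between 8 and 2 months of age. The comparison rests on 2 of the 4 arrays of the series, those titled for KO liver at 8 months and at 2 months, and every difference below is the 8-month value minus the 2-month value on the log2 scale. Each array is an Affymetrix Mouse Gene 1.0 ST array hybridized with liver RNA that was combined from 3 pairs of mice. The KO mice carried SIRT6Co/Co together with Alb-Cre. The albumin promoter drives this Cre recombinase in hepatocytes, and recombination in other cells of the liver was not measured here. The remaining arrays held liver RNA of WT SIRT6 mice at 2 and at 8 months and are set beside the KO arrays. Sex, strain background, feeding state and time of day are not stated in the labels. The arrays gave values for 19938 genes, of which 11963 passed a filter on dim genes and entered the counts.

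SIRT6 is an NAD-dependent deacetylase of histone H3 that sits on chromatin, and in liver it is known as a repressor of genes for glycolysis and triglyceride synthesis and as a factor that keeps blood glucose from falling. A mouse of 2 months is a young adult whose liver has completed its postnatal maturation, while 8 months is mid adulthood. The comparison therefore asks what distinguishes the liver RNA of young and mature adults that carry the conditional allele and Alb-Cre. With 1 pooled array a side there is no spread between pools or mice to set a difference against, and no test was made of a difference between the 2 KO arrays.

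Sirt6 itself did not separate the genotypes. Its probe set read 4.55 and 4.50 in the younger and older WT pools and 4.54 and 4.46 in the younger and older KO pools. The 4 values lie close together, and the exons that the probes cover are unknown here. The arrays are therefore called by their labels. The hepatocyte markers Alb, Ttr and Apoa1 were among the brightest genes, at 12.60, 12.33 and 11.92 in KO at 2 months and 12.52, 12.25 and 11.86 in KO at 8 months. Of 5 T and NK cell markers 1 passed the filter, of 4 measured B and plasma cell markers 1 passed, and of 3 neutrophil and 3 adipose markers none passed. The summed log2 level of the 5 Kupffer cell markers past the filter (Clec4f, Vsig4, Cd5l, Timd4 and Adgre1) was 27.71 in KO at 2 months and 27.52 at 8 months, against 25.81 and 25.79 in WT. No marker of these lists read 0, the lowest value on any of the 4 arrays being 0.89. In bulk tissue, fewer cells of a type and less RNA per cell cannot be told apart. The Y-linked genes Eif2s3y and Uty were well above the filter in all 4 arrays, at 7.43 and 7.34 for Eif2s3y in KO. Xist, the X-inactivation RNA of female cells, read 4.42 and 3.08 in the younger and older WT pools and 2.66 and 2.29 in the KO pools. Its mean was below the filter value of 3.34, while the younger WT pool alone lay above it. What this says of the sex of the pooled mice was not tested.

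The 2 KO arrays were alike. Across the 11963 genes their log2 difference had an SD of 0.19, and 85.1% of genes lay within 1.2-fold. The 2 WT arrays, which share no array with the KO comparison, differed with an SD of 0.17, and 89.8% of genes lay within 1.2-fold. Arrays of different genotype at the same age lay farther apart, with an SD of 0.35 and 762 genes at least 1.5-fold apart at 2 months and an SD of 0.30 and 519 genes at 8 months. Each of those shares a KO array with the age comparison.

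At 1.5-fold, a log2 difference of 0.585, 45 genes were higher at 8 months in KO, which is 0.376% of the genes past the filter, and 33 were lower, which is 0.276%. In WT 25 genes were higher, 0.209%, and 53 were lower, 0.443%. At least 2-fold apart were 1 higher gene and no lower gene in KO, and 7 higher and 8 lower genes in WT. The genes just inside the threshold in KO were Eif4e3 at 0.588 and Cox17 at -0.588, and those just outside were Chst14 at 0.583 and Eif3e at -0.584. These 4 genes are named for their place and were chosen after their values were seen.

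Which direction led depended on how the arrays were scaled. In the deposited values 57.7% of the 78 genes were higher at 8 months. With each array centred on its median the split was 23 higher and 56 lower, or 29.1% higher, with cyclic loess it was 27 and 43, or 38.6%, and with quantile normalization repeated on the 4 arrays it was 33 and 32, or 50.8%. Of the 45 higher genes 23, 23 and 29 were kept under the 3 scalings, and of the 33 lower genes 33, 30 and 27. The array of KO at 2 months had the lowest median over all probe sets, 3.52 against 3.56 to 3.58, and the highest upper quartile, 5.59 against 5.53 to 5.54. The genes were chosen on the gap between the 2 KO arrays, so that one of these arrays is often the extreme one of the 4 is fixed in large part by that choice. The array of KO at 2 months was lowest in 43 of the 45 higher genes and highest in 29 of the 33 lower genes, and that of KO at 8 months was the highest in 32 of the 45 and the lowest in 20 of the 33. The part of the 2-month array's distribution in these counts beyond the 3 scalings was not tested.

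The genes that crossed the threshold were dim. The median level of the 45 higher genes was 4.12 and that of the 33 lower genes 4.41, against 5.41 over all genes past the filter. A mean level of 6 or less was found in 44 of 45 higher genes (97.8%), 29 of 33 lower genes (87.9%) and 63.6% of all genes. No gene with a mean level above 7 was 1.5-fold apart. The difference also moved with level. Its median was 0.09 in the 2340 genes between 3 and 4, 0.02 between 4 and 5, and -0.06 to -0.08 in the bins above 5, where the WT medians ranged from -0.01 to 0.02. Of all genes past the filter 57.8% were below 0 in KO. That share was 31.2% between 3 and 4, 44.9% between 4 and 5, 65.0% between 5 and 6, 72.7% between 6 and 7 and 77.4% above 8, and it is the background for every count of list members below 0. Among the 4358 genes with a mean level over 6, an alternative chosen after seeing the data, 1 gene was higher and 4 were lower.

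**Figure D1:**
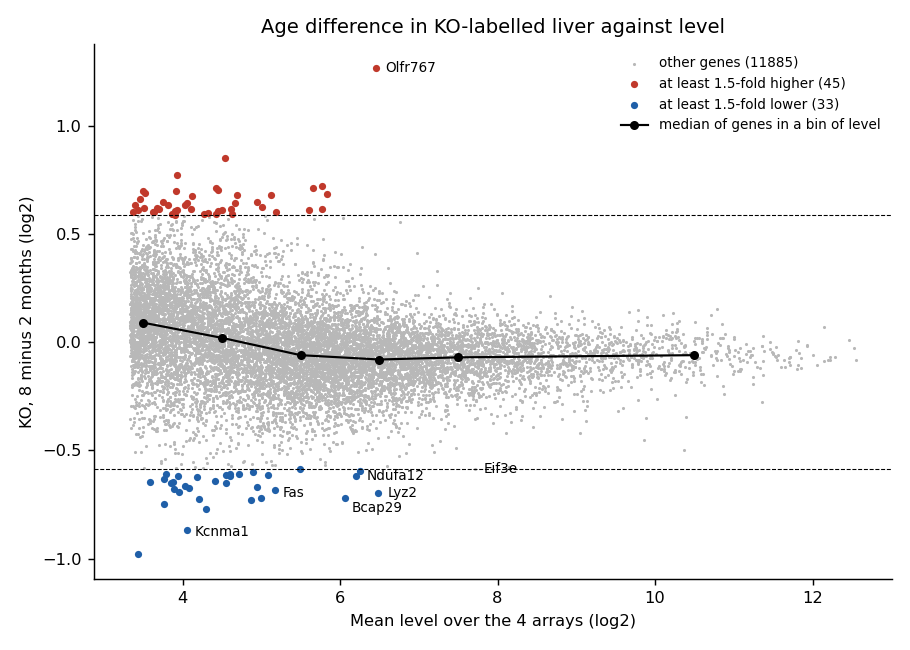
Difference between 8 and 2 months in KO (log2, vertical axis) against the mean level over the 4 arrays (log2, horizontal axis) for 11963 genes, 1 point a gene, with dashed lines at 1.5-fold in either direction and black points for the median of genes in bins of level. The 45 higher and 33 lower genes sit at the dim end, and no gene with a level above 7 crosses the lines.

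Lyz2, the lysozyme of macrophages and neutrophils, was the one gene past the only test that the 4 arrays allow. It read 7.19 in WT at 2 months and 6.29 at 8 months, and 6.57 in KO at 2 months and 5.87 at 8 months. Both 8-month arrays were below both 2-month arrays, and the difference was -0.70 in KO and -0.90 in WT. In an additive limma model of genotype and age over all 4 arrays, Lyz2 fell with age by 0.80 on the log2 scale (SE 0.10), with a limma adjusted p of 0.0395. It was 1 gene of 11963 (0.00836%). At an unadjusted limma p under 0.05 were 431 genes, of which 177 were higher and 254 lower at 8 months. These 431 are a share below 0.05, the share this threshold calls with no age effect, so their count shows no age effect by itself. That model has 1 residual degree of freedom, the gap between the age differences of the 2 genotypes, so its p weighs an age effect that both genotypes share and measures neither the spread between pools nor that between mice. The adjusted p of Lyz2 was 0.059 after repeated quantile normalization and 0.051 with a robust variance prior, both beyond the threshold, and ranged from 2.8e-05 to 0.84 over all alternatives.

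The defining markers of Kupffer cells, the resident macrophages of the liver, differed less than Lyz2 in KO. Over the 5 markers past the filter the difference ran from -0.13 to 0.07, with Cd5l at 6.45 and 6.33 and Clec4f at 5.82 and 5.88 at 2 and 8 months. Over the wider list of Kupffer cell and macrophage genes 26 of 34 passed the filter, and 22 of them were below 0 and 4 above. The median was -0.08 in KO and -0.14 in WT, at a median level of 5.46. Over all genes between 5 and 6 the medians were -0.06 in KO and -0.01 in WT, with 65.0% below 0 in KO. After Lyz2, the lowest were C1qc, a chain of the complement component C1q that macrophages make, at 5.44 and 4.96 in KO (-0.47, with -0.46 in WT), and the scavenger receptor Msr1 at 5.19 and 4.84 (-0.35, with -0.16 in WT). Only Lyz2 of the list passed the limma model. Whether macrophage number or their Lyz2 level sets its value was not tested.

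The 250 bases before the start of Lyz2 are shown because it is the gene past the test, and those of Ndufa12, a subunit of respiratory complex I, as a contrast among the brighter genes that were lower in KO. Both are RefSeq sequences of build GRCm38.p6, 5′ to 3′ on the gene's strand, at chr10:117282273-117282522 on the minus strand and chr10:94198785-94199034 on the plus strand. Capitals mark GGAA and its reverse complement TTCC, the core bound by ETS factors, the family of the myeloid regulator PU.1.
Lyz2: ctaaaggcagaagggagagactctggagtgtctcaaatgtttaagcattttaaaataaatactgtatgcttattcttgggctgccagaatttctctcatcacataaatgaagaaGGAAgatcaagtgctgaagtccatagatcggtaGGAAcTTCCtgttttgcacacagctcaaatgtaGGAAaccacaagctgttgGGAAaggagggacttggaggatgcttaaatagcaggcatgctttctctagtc
Ndufa12: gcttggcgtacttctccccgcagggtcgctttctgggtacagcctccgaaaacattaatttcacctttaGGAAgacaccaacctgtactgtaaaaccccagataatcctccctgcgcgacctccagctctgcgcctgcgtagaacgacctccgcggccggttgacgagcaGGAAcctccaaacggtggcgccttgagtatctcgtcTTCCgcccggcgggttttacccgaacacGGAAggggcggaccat
The Lyz2 window held 4 GGAA, 1 TTCC and 1 CpG, with a GC content of 41.6%. The Ndufa12 window held 3 GGAA, 1 TTCC and 22 CpG, with a GC content of 58.4%. Among all 27025 RefSeq promoter windows of this length, 93.4% held at least 1 GGAA or TTCC, with a median of 3. A match is a description of letters and shows no bound site. Over all 33 lower genes, 22 had a promoter in the table, with a median of 14 CpG between 250 bases before and 50 after the start, and 34 of the 45 higher genes had one, with a median of 11.5. The median over the 9543 genes past the filter with a promoter was 20 CpG, and over all 27025 promoters it was 7. Genes of matching level were not compared.

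The other gene at least 1.5-fold lower in both genotypes was Kcnma1, the pore subunit of the large-conductance calcium-activated potassium channel. Its mean over probe sets read 5.24 and 4.26 in WT at 2 and 8 months and 3.78 and 2.91 in KO, and both 8-month arrays were below the 2-month array of the same genotype. The difference was -0.87 in KO and -0.98 in WT, and in the additive model it was -0.92 (SE 0.13) with a limma adjusted p of 0.074, beyond the threshold. Its 2 probe sets disagreed in size, and the brighter one alone passed, with a limma adjusted p of 3.2e-05. With the mean of both it passed after median centring (0.022) and cyclic loess (7.4e-05), and the adjusted p ranged up to 0.88 over all alternatives. The brighter read 7.88, 6.01, 5.04 and 3.44, a difference of -1.59 in KO and -1.88 in WT, and the other read 2.61, 2.52, 2.53 and 2.38, near the lower end of the array. No gene was 1.5-fold higher in both genotypes, where 0.376% of all genes were higher in KO and 0.209% in WT. At such small shares the absence of a shared gene says little about the genotypes. The 2 shared genes are 6.06% of the genes lower in KO, where 0.443% of all genes were lower in WT. They are 3.77% of the genes lower in WT, where 0.276% of all genes were lower in KO.

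Other genes were ranked by additive p among those with ordinary names that were lower at 8 months. The 6 that followed Lyz2 and Kcnma1 were lower in both genotypes, by less in KO. Caveolin 1 (Cav1), the coat protein of caveolae, read 6.18 and 4.58 in WT and 4.66 and 4.10 in KO, a difference of -0.56 in KO and -1.60 in WT. Its additive limma adjusted p was 0.401. The intermediate filament vimentin (Vim), a mesenchymal marker, read 7.72 and 6.71 in WT and 6.50 and 6.20 in KO, a difference of -0.30 in KO. The annexins Anxa1 and Anxa2, which bind membrane phospholipids, differed by -0.41 and -0.35 in KO and by -1.07 and -1.01 in WT. The Wnt secretion factor Wls differed by -0.50 in KO and -0.90 in WT, and the lectin galectin 1 (Lgals1) by -0.26 and -1.04. In each of these 6 genes the array of WT at 2 months was the highest of the 4. None passed the limma model in the deposited values, and all 6 passed after cyclic loess, where the model called 13 genes lower and 4 higher.

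The age differences of the 2 genotypes had little in common. Across genes, which are not replicates, the KO and WT age differences were related by r = -0.06 (Pearson) and rho = -0.09 (Spearman), and 46.6% of the 11963 genes had the same sign. The 25 genes higher in WT had a median difference of -0.18 in KO, with 20 below 0. Their median level was 6.19, and all genes between 6 and 7 had a KO median of -0.08, with 72.7% below 0. The 53 genes lower in WT had a median of -0.07 in KO, with 32 below 0 and 21 above, near the 57.8% of all genes. Their median level was 4.44, and 44.9% of all genes between 4 and 5 were below 0. The 45 genes higher in KO had a median of 0.05 in WT, and the 33 lower genes a median of 0.12, with 22 above 0.

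**Figure D2:**
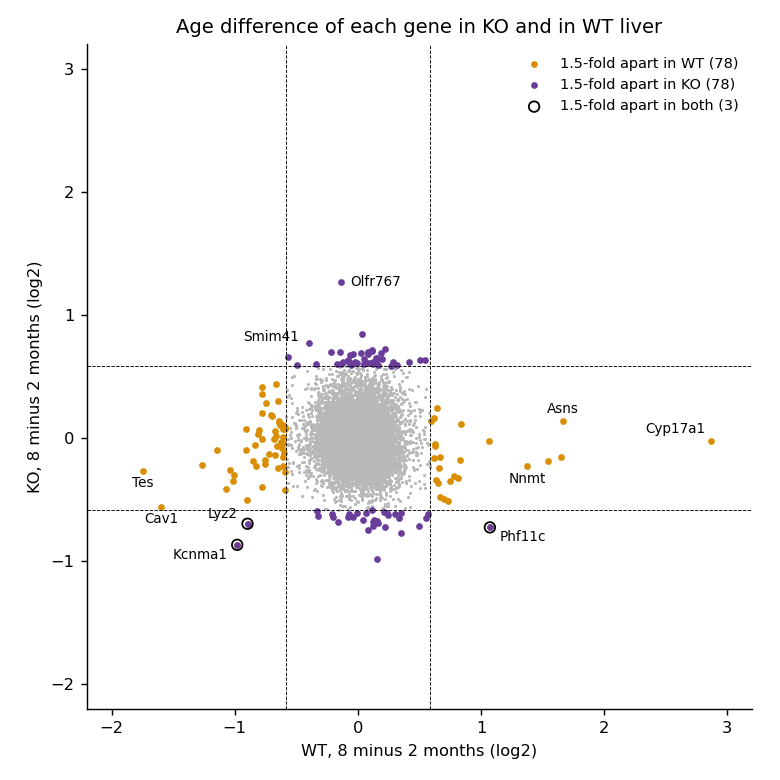
Difference between 8 and 2 months in KO (log2, vertical axis) against that in WT (log2, horizontal axis) for 11963 genes, 1 point a gene, with dashed lines at 1.5-fold. Genes past the lines in WT (orange) and in KO (purple) form a cross, and 3 circled genes, Lyz2, Kcnma1 and Phf11c, lie past both.

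Several genes with a large age difference in WT had a smaller one in KO. These genes are shown for their WT difference, so a smaller one in KO follows in large part from that choice. Of the 25 genes 1.5-fold higher in WT 16 lay within 1.2-fold in KO, and of the 53 lower genes 37. The steroid hydroxylase and lyase Cyp17a1 read 3.29 and 6.16 in WT at 2 and 8 months and 2.92 and 2.89 in KO. It passed the filter through the 8-month WT array alone, and both KO values lie below the filter value of 3.34, where a difference cannot be read. Nnmt, which methylates nicotinamide and so takes part in NAD metabolism, read 4.43 and 5.80 in WT and 7.38 and 7.15 in KO. Both KO arrays were above both WT arrays, and the KO difference was -0.23. Asns, the asparagine synthetase and a target of the amino acid response, read 4.52 and 6.18 in WT and 4.59 and 4.73 in KO, so its level in older KO liver was near that of young WT liver. Tes, a focal adhesion protein, read 5.76 and 4.02 in WT and 3.74 and 3.47 in KO. Cyp7a1, the rate-limiting enzyme of bile acid synthesis, read 8.09 and 8.71 in WT and 8.56 and 8.40 in KO, a difference of 0.62 in WT and -0.16 in KO. With 1 array in each of the 4 groups, the difference between the 2 age differences has no error and was not tested.

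Among the genes lower in KO, Phf11c, a PHD finger gene, was the only one that was 1.5-fold apart in opposite directions. It read 4.89 and 5.96 in WT and 4.68 and 3.95 in KO, a difference of 1.07 in WT and -0.73 in KO, and the array of KO at 8 months was the lowest of the 4. Smim26, a small membrane protein, read 4.60 and 5.09 in WT and 5.50 and 4.78 in KO, and the adenylyl cyclase Adcy4 read 4.32 and 4.89 in WT and 4.91 and 4.29 in KO. For both, the array of KO at 2 months was the highest, and the WT pools differed the other way by 0.49 and 0.57. Zfp457, Gkap1, Nol7, Ndufa12, Vcpkmt and Rdh14 were lower in KO, between -0.77 and -0.61, and their WT differences ran from 0.22 to 0.35. Gkap1, which anchors cGMP-dependent kinase, had 2 probe sets at -1.02 and -0.43.

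Other named genes were lower without a difference as large in WT. Bcap29, a transport protein of the endoplasmic reticulum, was the brightest of the 15 lowest after Lyz2, at 6.09 and 6.21 in WT and 6.34 and 5.62 in KO, and the last array was the low one. Fas, the death receptor and a p53 target, read 5.10, 5.22, 5.54 and 4.85, with the 2 KO arrays on either side of the WT arrays. Also lower were Sf3b6, a subunit of the U2 snRNP complex SF3b, at 4.63, 4.76, 5.53 and 4.86, and Thg1l, which adds the extra guanosine to histidine tRNA, at 3.88, 3.80, 4.25 and 3.61. For Sf3b6 the array of KO at 2 months alone was high, and the KO array at 8 months was near WT. Zinc finger genes named Zfp made up 3 of the 33 (9.09%), Zfp457, Zfp948 and Zfp119a, against 1.91% of all genes, and over the 228 such genes the median was -0.04. Rsl1, a KRAB zinc finger repressor of male-specific liver genes, read 3.46, 3.42, 4.06 and 3.41. Small nucleolar RNA genes, which guide the modification of ribosomal RNA, made up 4 of the 33 (12.1%, against 0.326% of all genes), Snord47, Snord35b, Snora31 and Snord42b at -0.98, -0.75, -0.65 and -0.65. Over all 39 small nucleolar RNA genes past the filter the median was -0.06 with 27 below 0. The Zfp and small nucleolar RNA groups, and Zfp119a and the 4 Snor genes by name, were chosen after their values were seen.

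**Figure D3:**
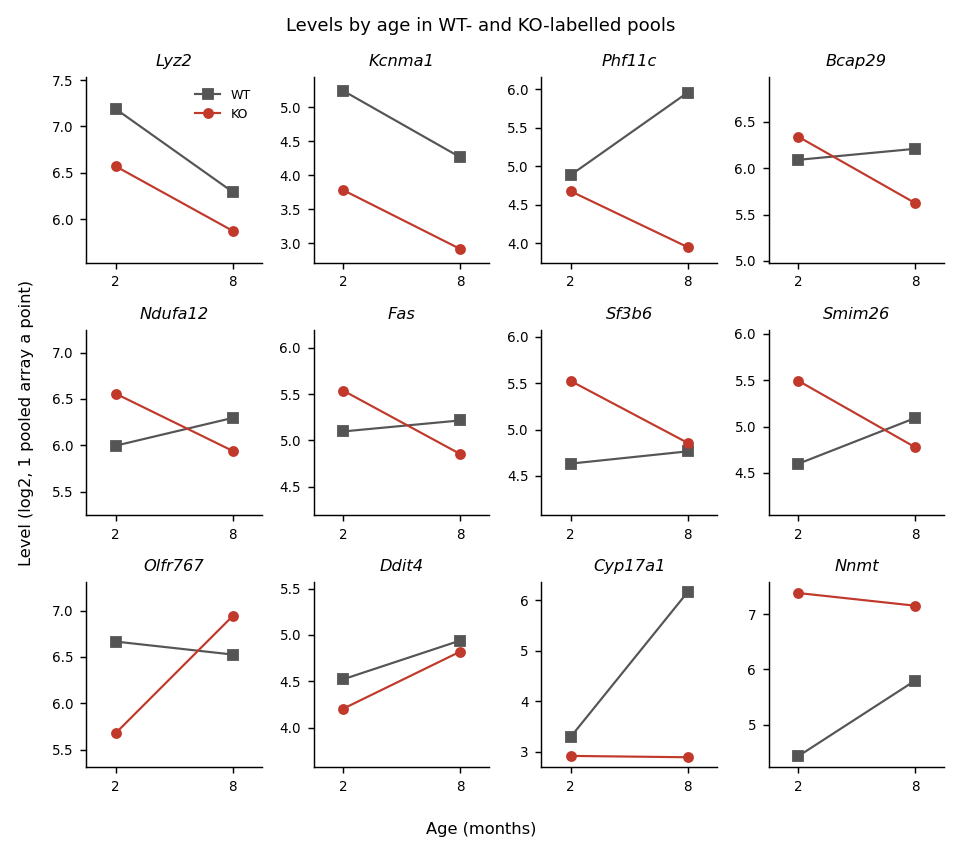
Level (log2, vertical axis) at 2 and 8 months (horizontal axis) of 12 genes in WT-labelled (grey squares) and KO-labelled (red circles) pools, 1 array a point, with lines joining the ages of a genotype, whose mice are different. Lyz2 and Kcnma1 are lower at 8 months in both, Phf11c goes opposite ways, and Nnmt differs with age in WT by 1.37 and in KO by -0.23. Both KO values of Cyp17a1 lie below the filter value of 3.34.

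The genes higher in KO were dim. The highest was the olfactory receptor Olfr767, named after its value was seen, at 6.67 and 6.53 in WT and 5.68 and 6.94 in KO, a difference of 1.26. Its array of KO at 2 months was the one low value. The 15 highest genes with ordinary names ran from 0.77 to 0.63 and included Lhb, the beta subunit of luteinizing hormone, at 4.63, 4.41, 4.03 and 4.73, the pancreatic elastase Cela3b at 3.96, 3.82, 3.61 and 4.30, the retinal transcription factor Atoh7 at 5.89, 5.92, 5.42 and 6.11, and the type I interferon Ifna5 at 4.41, 4.52, 4.02 and 4.73. In each of these 4 genes the array of KO at 2 months was the lowest and that of KO at 8 months the highest. S1pr2, a receptor for sphingosine 1-phosphate and conjugated bile acids, read 5.02, 5.17, 4.48 and 5.13. Mrps10, a protein of the mitochondrial ribosome, read 4.73, 4.81, 4.28 and 4.96. Of the 76 mitochondrial ribosomal protein genes past the filter 20 were above 0 and 56 below (73.7%). Their median level was 6.12, and the share below 0 was near the 72.7% of all genes between 6 and 7. By class, 3 of the 45 were microRNA genes (6.67%, against 0.652% of all genes), Mir187, Mir375 and Mir92b, and 5 were long noncoding RNA genes (11.1%, against 1.94%). These classes and names were chosen after the values were seen.

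Among genes with ordinary names that were higher at 8 months, the 3 with the smallest additive p-values were Kcnk6, Ddit4 and Socs1. All were short of the limma threshold. Ddit4, an inhibitor of mTORC1 that glucocorticoids and energy stress induce, read 4.52 and 4.94 in WT and 4.20 and 4.82 in KO, a difference of 0.62 in KO and 0.42 in WT. Socs1, an inhibitor of cytokine signalling, read 4.53 and 4.95 in WT and 4.35 and 4.89 in KO. The potassium channel Kcnk6 read 3.53 and 4.04 in WT and 3.54 and 4.17 in KO. For each of the 3 genes both 8-month arrays were above both 2-month arrays. Their additive limma adjusted p was 1.

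Gene lists of liver programmes stayed near 0 in KO. In 52 lists, Ddit4 was the one member at least 1.5-fold higher, and Lyz2, Fas and Saa1 were the ones lower. The list medians ran from -0.14 for cytosolic ribosomal proteins to 0.24 for T and NK cell genes, of which 8 dim ones passed the filter. Of 363 medians recomputed under other scalings, filters and summaries 358 stayed within 0.1 of their value, and the 5 that did not came from another filter. That limit is as large as most of the medians themselves, so staying within it says little of how steady they are. The sign of a median close to 0 was less steady, and 61 of the 363 had the other sign, as for fatty acid oxidation, whose median ran from -0.10 to 0.02.

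Lipid genes differed little between the ages in KO. For fatty acid synthesis 24 genes passed the filter, none was 1.5-fold apart, and the median was -0.06, with the members between -0.15 and 0.16. Fasn, the fatty acid synthase, read 9.80 and 9.76 in KO at 2 and 8 months, against 8.76 and 8.60 in WT. Scd1, which desaturates stearate, read 11.89 and 11.80, and Srebf1, the transcription factor of the pathway, 8.57 and 8.54. In all 3 genes both KO arrays were above both WT arrays at either age. For cholesterol synthesis the median over 20 genes was -0.01, with Idi1, the isopentenyl diphosphate isomerase, lowest at -0.31 (8.64 and 8.34). For fatty acid oxidation the median over 26 genes was -0.06, and for PPAR alpha targets it was -0.05 over 24 genes, with Cpt1a, the entry step of mitochondrial oxidation, at 9.13 and 9.10. None of these 4 lists held a 1.5-fold member.

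Triglyceride and lipid droplet genes showed somewhat more spread than the lipid lists above, but less than all genes. Within 1.2-fold were 92.3% of 26 triglyceride genes and 89.5% of 19 lipid droplet genes, against 85.1% of all genes. Their medians were -0.04 and 0.01, and neither list held a 1.5-fold member. Of the lipid droplet genes 10 were above 0 and 9 below. Fabp2, a fatty acid binding protein, read 7.19 and 6.73 in KO (-0.45) against 7.57 and 7.61 in WT, and the array of KO at 8 months was the lowest of the 4. The droplet coat genes Plin1, Plin4 and Plin5 were higher at 8 months in KO by 0.36, 0.34 and 0.24, and Pnpla2, the lipase that starts triglyceride breakdown, was at -0.22. In WT the 3 Plin genes differed by -0.10, 0.34 and 0.64. Plin1 and Plin4 were dim, at mean levels of 4.0 and 4.56. Pparg and Cd36, both known to go up in fatty liver, read 6.42 and 6.40, and 6.81 and 6.92, in KO at 2 and 8 months. Both KO arrays were above both WT arrays, where Cd36 read 5.51 and 5.39. Cidec and Plin4 lay the other way, with Cidec at 4.89 and 4.94 in KO against 5.49 and 5.49 in WT. Over the list of 21 fatty liver genes past the filter, KO minus WT had a median of -0.01 at 2 months and 0.10 at 8 months. Enho, which encodes the peptide adropin, read 6.30 and 6.15 in WT and 5.57 and 6.15 in KO (0.57), so the array of KO at 2 months was the low one.

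**Figure D4:**
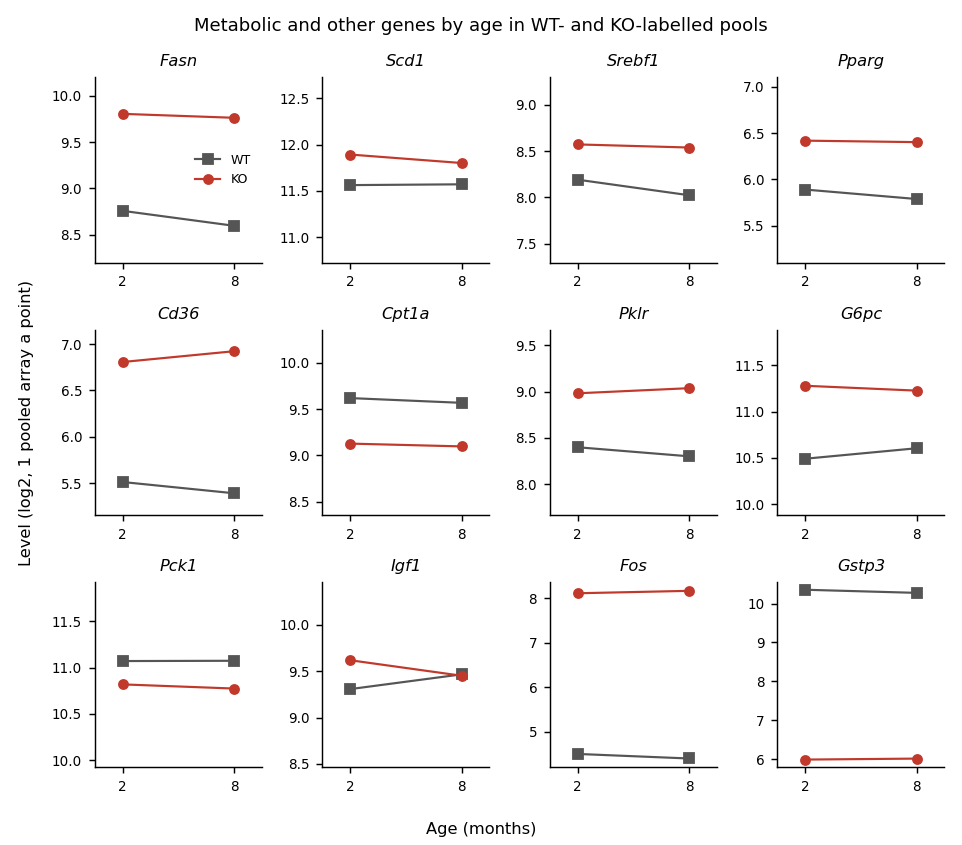
Level (log2, vertical axis) at 2 and 8 months (horizontal axis) of 12 genes of lipid and glucose metabolism, growth signalling, immediate early response and detoxification, in WT-labelled (grey squares) and KO-labelled (red circles) pools, 1 array a point. The KO lines are nearly flat, as for Fasn from 9.80 to 9.76 and Fos from 8.12 to 8.17. The genotypes lie apart, except for Igf1 at 8 months, with 9.47 in WT and 9.45 in KO.

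Genes of glucose and insulin responses were also level. Over 22 glycolysis genes the median was -0.01, with Pklr, the liver pyruvate kinase, at 8.98 and 9.04 in KO, and over 24 genes of gluconeogenesis and glycogen it was -0.06. G6pc, the glucose 6-phosphatase, read 11.28 and 11.23 in KO and Pck1, the cytosolic PEP carboxykinase, 10.82 and 10.77. In WT the pairs were 10.49 and 10.60, and 11.07 and 11.07. In the insulin and IGF list of 28 genes the lowest was Grb14, an adaptor that dampens the insulin receptor, at 7.45 and 7.16 in KO (-0.29). Igf1 read 9.62 and 9.45 in KO, and Igfbp1 9.71 and 9.73.

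Immediate early genes, which set the KO-labelled arrays apart from WT at both ages, were close to level between the 2 KO arrays. Over 29 immediate early genes past the filter the median was -0.03, while KO minus WT had a median of 0.90 at 2 months and 1.08 at 8 months. Fos read 8.12 and 8.17 in KO against 4.49 and 4.39 in WT, Jun 9.22 and 9.10 against 6.49 and 6.18, and Egr1 7.79 and 7.72 against 5.42 and 5.44. The highest and lowest members were Nr4a3 at 4.18 and 4.67 (0.49) and Maff at 4.80 and 4.32 (-0.48). Over 19 heat shock chaperones the median was -0.08 and all 19 lay within 1.2-fold. Cryab, a small heat shock protein, was the highest at 4.10 and 4.33. Over 22 folding genes of the endoplasmic reticulum it was -0.07, with Dnajb9, a cochaperone of BiP, at 8.58 and 8.25 (-0.33). The integrated stress response list, whose KO minus WT medians were -0.08 at 2 months and -0.10 at 8 months, had a median of -0.03 between the ages in KO, with Ddit4 1.5-fold higher. Nupr1 read 4.63 and 5.13 in KO (0.50) and 4.91 and 4.39 in WT (-0.52), opposite directions that were not tested.

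Most xenobiotic and conjugation genes were below 0 in KO, as were 77.4% of all genes with a level above 8, whose median was -0.06. Of 34 phase II and antioxidant genes past the filter 30 were below 0, with a median of -0.13 in KO and 0.02 in WT, and the KO median ran from -0.17 to -0.05 over the scalings. The lowest were the glutathione transferase Gstm6 at 7.11 and 6.64 (-0.47), the glucuronosyltransferase Ugt2b38 at 7.67 and 7.30 (-0.37) and the quinone reductase Nqo1 at 4.18 and 3.81 (-0.37). In each, the array of KO at 2 months was the highest of the 4. Of 25 xenobiotic cytochrome P450 genes 22 were below 0, with a median of -0.08, close to that of all genes at their level, and the lowest were Cyp3a44 at 5.58 and 5.06 (-0.51), Cyp2c38 at 6.68 and 6.32 (-0.36) and Cyp3a11, the main CYP3A enzyme of mouse liver, at 10.74 and 10.39 (-0.35). No member of either list was 1.5-fold apart. The pi-class glutathione transferase Gstp3 read 5.99 and 6.02 in KO against 10.35 and 10.27 in WT.

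Most bile acid and male-biased genes were also below 0, at median levels where 77.4% of all genes were. Of 27 bile acid genes 23 were below 0 with a median of -0.11, against 0.10 in WT, and the lowest was Fgfr4, the receptor through which FGF15 represses Cyp7a1, at 7.20 and 6.93 (-0.28). Of 24 male-biased liver genes 21 were below 0 with a median of -0.08, against 0.10 in WT. Mup21, a major urinary protein, read 10.13 and 9.68 in KO (-0.45) and 9.74 and 9.86 in WT, and Hsd3b5 9.03 and 8.81 in KO and 8.64 and 8.70 in WT. For both the array of KO at 2 months was the highest. Of 13 female-biased genes, with a median level of 5.42, 9 were below 0 with a median of -0.07, against -0.06 over all genes between 5 and 6. None of the members of either sex-biased list was 1.5-fold apart, and over the scalings the medians ran from -0.15 to -0.02 for bile acid genes, from -0.12 to -0.01 for male-biased genes and from -0.11 to -0.05 for female-biased genes.

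The clock and hormone lists gave no member lower by 1.5-fold. Of 14 core clock genes 12 were below 0, with a median of -0.09 against -0.08 over all genes between 6 and 7, and the lowest were the repressors Bhlhe41 at 4.56 and 4.18 (-0.38) and Bhlhe40 at 8.03 and 7.74 (-0.29). Arntl, the activator BMAL1, read 4.53 and 4.53 and Dbp, a direct output, 7.56 and 7.58. The hour of sampling is not stated, and its part in these values was not tested. Among 22 glucocorticoid-induced genes, Ddit4 was higher and Arrdc3 and Fkbp5 read 6.86 and 6.54, and 5.01 and 4.70, in KO. Fkbp5, a cochaperone of the glucocorticoid receptor, read 7.18 and 7.96 in WT, so its WT and KO differences, 0.78 and -0.31, had opposite signs. The metallothionein Mt2 read 5.34 and 5.11 in KO against 8.43 and 8.82 in WT.

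Inflammatory lists were slightly below 0. Of 25 genes in the acute phase list 21 were below 0, with a median of -0.10 at a median level of 8.64, against 77.4% and -0.06 over all genes above 8. The 4 above 0 include the olfactory receptor Olfr48 (0.30), which is no acute phase gene. Saa1, a serum amyloid that interleukin signals induce, read 4.20 and 3.52 in KO, a difference of -0.68, and was dim in WT too, where it differed by -0.16 and read 3.83 at 8 months. Orosomucoid 2 (Orm2) read 6.83 and 6.37 in KO (-0.47) and 5.41 and 5.46 in WT, and Lcn2 6.50 and 6.52 against 5.38 and 5.45. Over 24 interferon-stimulated genes the median was -0.04, with members between -0.39 (Irgm1, 6.27 and 5.89) and 0.31 (Oas2). In the list of MHC class II and antigen presentation, Cd74, the invariant chain, read 6.42 and 5.99 (-0.43) and H2-Aa 6.19 and 5.78 (-0.41), while H2-Ab1, the partner chain of H2-Aa, read 5.59 and 5.66. Chemokine and NF-kB targets had a median of -0.05 over 20 genes.

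Among the cell type lists, 28 endothelial genes had a median of -0.11 with 21 below 0, at a median level of 5.40, against 65.0% and -0.06 over all genes between 5 and 6, and Pecam1, the adhesion molecule CD31, read 5.49 and 5.14 in KO (-0.36) against 5.17 and 5.23 in WT. Over 31 stellate cell and fibrosis genes the median was -0.06, with the retinol-storing enzyme Lrat at 4.57 and 4.27 and lumican (Lum) at 4.44 and 4.03. Collagens went the other way. Of 17 collagen genes 13 were above 0 in KO, with a median of 0.09 (0.05 to 0.10 over the scalings), while the WT median was -0.10. The highest were Col15a1 at 4.49 and 4.97 (0.48), Col8a1 at 3.08 and 3.51 (0.43) and Col5a3 at 4.71 and 5.10 (0.39). The collagens were dim, with a median level of 4.83, and 44.9% of all genes between 4 and 5 were below 0.

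Growth and fetal genes were dim and had no member 1.5-fold apart. Over 22 cell cycle genes past the filter, with a median level of 3.94, the median was 0.02. Rrm2, a subunit of ribonucleotide reductase, was the highest at 3.33 and 3.75 (0.42). Of 15 fetal and juvenile liver genes 10 were above 0, with a median of 0.10, and Tff3, a trefoil peptide, Dlk1, a fetal hepatoblast protein, and the cell cycle inhibitor Cdkn1c differed by 0.47, 0.40 and 0.38. With the stricter 60th percentile filter that median was -0.08. Among p53 and senescence genes, Fas was the one 1.5-fold member, and Cdkn2a, which marks senescent cells, read 3.60 and 3.83 in KO.

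Genes of protein synthesis and respiration were the largest lists. Of 47 cytosolic ribosomal protein genes 41 were below 0, with a median of -0.14 in KO and 0.03 in WT, against -0.06 and 0.02 over all genes above 8, and the KO median ran from -0.18 to -0.06 over the scalings. Rpl34 was the lowest at 4.62 and 4.06 (-0.56), followed by Rps25 at 9.15 and 8.83 (-0.32) and Rpl7 at 8.60 and 8.30 (-0.30). Ribosomal protein genes have many near-identical processed copies, so their probes can be shared. Of 57 oxidative phosphorylation genes 40 were below 0, with a median of -0.06, that of all genes above 8, and 98.2% were within 1.2-fold. Ndufs4, a subunit of complex I, read 7.69 and 7.35 (-0.33). The list of plasma proteins of hepatocytes was close to level, with 26 of 29 below 0 and a median of -0.07. The 3 above 0 include Olfr48 (0.30), which is no plasma protein.

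**Figure D5:**
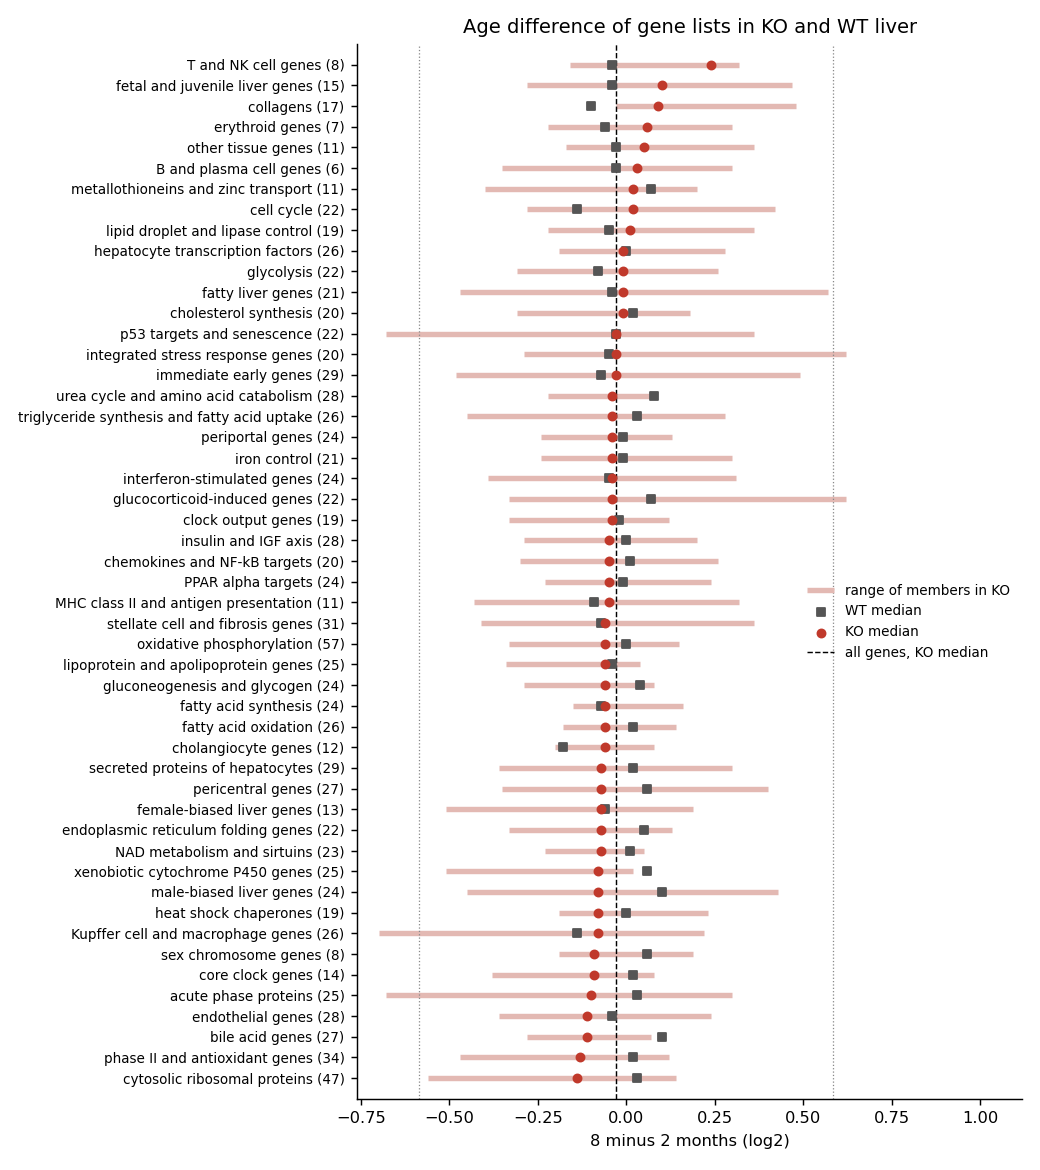
Median difference between 8 and 2 months (log2, horizontal axis) of gene lists with at least 5 genes past the filter, whose number stands in parentheses, in KO (red circles) and WT (grey squares), with bars for the range of members in KO and dotted lines at 1.5-fold. The KO medians lie between -0.14 and 0.24, around the all-gene median of -0.03, and 4 list members pass the dotted lines.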

How the data were processed

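Liver RNA was measured in 4 groups of 1 pooled array each. The authors deposited log2 values, which the submitters' processing notes trace to RMA, run in Affymetrix Expression Console 1.0v. RMA corrects background, quantile normalizes the arrays and summarises probes, which compresses differences of dim probe sets. The set of arrays normalized together, the annotation and the build are not given in the sources used here.

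Probe sets with 1 platform symbol were averaged per gene. Identifiers were looked up in RefSeq GRCm38.p6 (91 had no match, 0 symbols changed), and 999 genes had more than 1 probe set. A gene was counted where its mean of 4 arrays was above 3.34, the 40th percentile. An array has no read depth, and the number of arrays limits the precision.

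The only test was an additive model (genotype and age, intensity trend) with limma 3.58.1 in R 4.3.3, checked on simulated data, at a Benjamini-Hochberg adjusted p of 0.05, with a prior of 11.3 degrees of freedom. The words rose, fell and changed are kept for genes past it. Alternatives were probe set summary, scaling, filter, fold threshold, variance model and the mean of list members.

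The named genes are the 15 highest and 15 lowest in KO, the 10 at each end by the age difference shared by both genotypes, by KO minus WT and by adjusted p, 3 at each end of 52 gene lists with every 1.5-fold member, and a list of key genes. That rule names no small RNA, predicted gene, receptor of the nose or tongue, or segment of an antigen receptor. The olfactory receptor Olfr48 is an exception, as a member of the acute phase and plasma protein lists. The comparison, the members and the lists were chosen with earlier results of these data known.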

Additional observations from a re-analysis of the deposited data

Results flagged for a closer look

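Phf11c was 1.5-fold apart in opposite directions in the 2 genotypes. It was higher at 8 months in WT (4.89 and 5.96) and lower in KO (4.68 and 3.95), so the KO difference minus the WT difference was -1.80. The 4 arrays leave no error for this value, and the difference between the genotypes was not tested.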

How the results depend on the processing

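The KO difference of the named genes stayed within the model's residual spread of its value in 1388 of 1392 recomputed values. The sign turned in 61 of these values, all of genes whose difference was at most 0.16 in size. A gene with 1 probe set cannot move with the probe set summary, and median centring shifts all genes alike. Part of this agreement was therefore fixed in advance. The 4 that moved further include Kcnma1 to -1.59 and Gkap1 to -1.02 on the brighter probe set. Counts moved more. The 45 genes higher in KO became 23 with median centring, 27 with cyclic loess, 78 without a filter, 13 with a 60th percentile filter, 1 at 2-fold and 1 at a mean level over 6, a limit added after seeing the data. The 33 lower genes became 56, 43, 42, 12, 0 and 4 under the same settings. The 1 gene lower in the additive limma model became 2 with the brightest probe set (Lyz2 and Kcnma1) and 2 with median centring. With cyclic loess it became 13, and 4 genes were called higher. The count was 0 with repeated quantile normalization, without a filter, without an intensity trend or with a robust prior. Under these settings 423, 689, 505 and 431 genes had an unadjusted limma p under 0.05, each a share below 0.05 of the genes fitted. The 2 genes lower in both genotypes became 1 with the 60th percentile filter and 0 at 2-fold. Most genes 1.5-fold apart are dim and close to background, which limits their precision. No paired analysis was possible because each group is 1 array, and no array could be left out.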

Other observations

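Several brighter genes lay just short of 1.5-fold in KO. The nucleolar chaperone Npm1 read 7.23 and 6.72 in KO at 2 and 8 months (-0.51) and 6.33 and 7.06 in WT (0.74). Cytochrome c (Cycs) read 7.18 and 6.65 in KO (-0.52), the mRNA export factor Sarnp 7.16 and 6.59 (-0.57), and the translation initiation subunit Eif3e 8.09 and 7.51 (-0.58). In these 4 genes the array of KO at 2 months was the highest of the 4. Slc22a30, a solute carrier, read 10.89 and 10.39 in KO (-0.50). Mrps16, a mitochondrial ribosomal protein, was higher at 6.41 and 6.97 (0.56). These genes were chosen after their values were seen.

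Classes of genes outside the lists differed in where they lay around 0. Of 78 microRNA genes past the filter 65 were above 0 in KO, with a median of 0.14 (0.06 in WT), of 232 long noncoding RNA genes 160, with 0.12 (0.04 in WT), and of 29 olfactory receptors 26, with 0.23 (0.00 in WT). Their median levels were 4.32, 4.13 and 3.67, against 5.47 for protein-coding genes, whose median was -0.03. Dim genes as a whole lay higher, with a median of 0.09 between levels 3 and 4 and 0.02 between 4 and 5.

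Probe sets that the platform table did not list were apart more often than named ones. Of 5192 such probe sets above the filter value, 298 were 1.5-fold higher and 408 lower at 8 months in KO (13.6%), and 591 were apart in WT. Of the 13198 probe sets with 1 symbol, 57 were higher and 54 lower (0.841%). What the unlisted probe sets measure was not tested.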
